A study of Mus musculus with 4 samples.

Results

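Pancreatic polypeptide cells (PP cells) are a rare endocrine cell type of the mouse islet. Here they are the cells in which transcripts of Ppy, the pancreatic polypeptide gene, made up at least 2% of the UMIs (unique molecular identifiers, each standing for 1 captured transcript) and outnumbered those of Gcg (glucagon, the alpha-cell hormone) and Sst (somatostatin, the delta-cell hormone), and in which Ins1 and Ins2 (insulin) together stayed under 30%. Of 7263 cells that had at least 500 UMIs, at least 100 genes and at most 10% mitochondrial UMIs, 138 met this rule (1.90%). The cells were chosen by the shares of Ppy, Gcg, Sst, Ins1 and Ins2 and of no other gene, so the levels of these 5 genes are given below as a description without a test.

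The cells came from dissociated islets of adult mice, each library pooling islets of male and female animals. The groups were the mutant, Myt3 IM/IM in the paper and Myt3 mutant in the labels, which carries an insertion in Myt3 (gene symbol St18) in every cell, and the control, which does not carry it. Both groups were on the same diet, given as high-fat in the paper's methods and as normal in the labels, and the platform is likewise inDrop in the one and PIPseq in the other. Matrices of the libraries labelled mutant 1, mutant 2 and control 2 were read, and control 1 was not analysed here. The 3 matrices held 8448466, 9013499 and 36985253 UMIs, and kept cells had a median of 2427, 3852 and 14051 UMIs, so control 2 was sequenced to a greater depth per cell than either mutant library. In the labels, control 2 also has another batch entry than both mutant libraries. The insertion cannot be read from UMI counts per gene. No cell barcode was shared between libraries.

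Pancreatic polypeptide belongs to the same peptide family as peptide YY and neuropeptide Y, is secreted after a meal under vagal, cholinergic control, and restrains pancreatic secretion and food intake through the Y4 receptor. PP cells lie mostly in the part of the pancreas that forms from the ventral bud and are scattered there at the islet rim, beside the alpha cells. Among islet cell types they are read out by Ppy, by Pyy and, in mouse, by the tetraspanin Tspan8.

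The genes Ppy and Pyy neighbour each other on chromosome 11, with start sites 6513 bases apart on the same strand, and Tspan8 lies on chromosome 10. Their promoters, 250 bases before to 50 bases after the start site, are shown because these are the genes that marked the PP cells. They were read from RefSeq on build GRCm38.p6, 5′ to 3′ on the strand of the gene, at chr11:102101270-102101569 (minus strand), chr11:102107783-102108082 (minus strand, the first of 2 listed starts) and chr10:115817034-115817333 (plus strand). Capitals mark matches, on either strand, to 4 motifs searched by their letters: the TATA box TATAAA, the MAF half-site TGCTGAC, the forkhead motif TGTTTAC and the homeodomain core TAATTA.
Ppy: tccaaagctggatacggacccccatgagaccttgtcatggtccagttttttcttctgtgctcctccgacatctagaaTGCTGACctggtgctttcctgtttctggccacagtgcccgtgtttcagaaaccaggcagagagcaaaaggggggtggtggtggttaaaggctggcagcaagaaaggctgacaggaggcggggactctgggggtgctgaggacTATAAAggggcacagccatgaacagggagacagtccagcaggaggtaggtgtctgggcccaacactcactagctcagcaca
Pyy: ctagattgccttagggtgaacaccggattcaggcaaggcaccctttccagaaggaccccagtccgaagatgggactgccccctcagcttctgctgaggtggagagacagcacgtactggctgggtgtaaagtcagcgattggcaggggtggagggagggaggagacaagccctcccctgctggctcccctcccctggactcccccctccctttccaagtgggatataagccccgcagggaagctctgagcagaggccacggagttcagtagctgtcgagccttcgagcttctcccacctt
Tspan8: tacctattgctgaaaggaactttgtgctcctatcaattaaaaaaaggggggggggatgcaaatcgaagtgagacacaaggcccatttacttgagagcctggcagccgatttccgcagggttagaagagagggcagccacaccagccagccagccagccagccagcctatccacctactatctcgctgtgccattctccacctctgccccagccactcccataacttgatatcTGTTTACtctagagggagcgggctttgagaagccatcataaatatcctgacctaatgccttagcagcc
The Ppy window held a TATA box 31 bases and a MAF half-site 173 bases before the start, and the Tspan8 window a forkhead motif 18 bases before it. The Pyy window held none of the 4. Of the 32851 promoter windows in the table, 13.6% held the TATA box, 4.67% the MAF half-site, 3.65% the forkhead motif and 5.29% the homeodomain core, so each is a common run of letters, and a match or its absence is a description only.

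Mutant 1 held 69 PP cells among 2940 kept cells, 2.35% with an exact 95% binomial interval of 1.83% to 2.96%. Mutant 2 held 44 of 2040, 2.16% (1.57% to 2.89%). Control 2 held 25 of 2283, 1.10% (0.710% to 1.61%). The shares of both mutant libraries lay above the interval of control 2. The interval of mutant 1 did not overlap that of control 2, and the interval of mutant 2 overlapped it slightly. Over unmixed cells, defined below, the intervals of mutant 1 (1.18% to 2.12%) and control 2 (0.502% to 1.30%) overlapped too. Counted among the PP, alpha and delta cells alone, the order turned around, with PP cells making up 14.0% (11.1% to 17.4%) in mutant 1, 11.7% (8.61% to 15.4%) in mutant 2 and 23.4% (15.7% to 32.5%) in control 2, because alpha cells numbered 336, 254 and 41 and delta cells 88, 79 and 41. The intervals cover counting error only. With 1 control library no test between genotypes was possible, and genotype, batch, depth and library cannot be told apart.

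In mutant 1, mutant 2 and control 2 a PP cell had a median of 2358, 3294 and 7319 UMIs, above that of alpha cells (1745, 2796 and 6311) and below that of beta cells (3174, 5077 and 17216) of the same library. Beta cells here are those with at least 30% insulin and under 2% of each of the other hormones. Ppy transcripts ranged from 2.73% to 24.1% of a PP cell's UMIs in mutant 1, with a median of 10.5%. In mutant 2 they ranged from 2.51% to 24.4% around a median of 13.6%, and in control 2 from 2.01% to 53.0% around 32.3%. Most PP cells therefore lay far above the threshold. Just inside it were cells at 2.73%, 2.51% and 2.01%, and the highest otherwise eligible cells below it were at 1.72%, 0.599% and 1.22%. Between 1% and 2% there were 6, 0 and 1 such cells, and between 2% and 4% there were 5, 3 and 2.

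**Figure D1:**
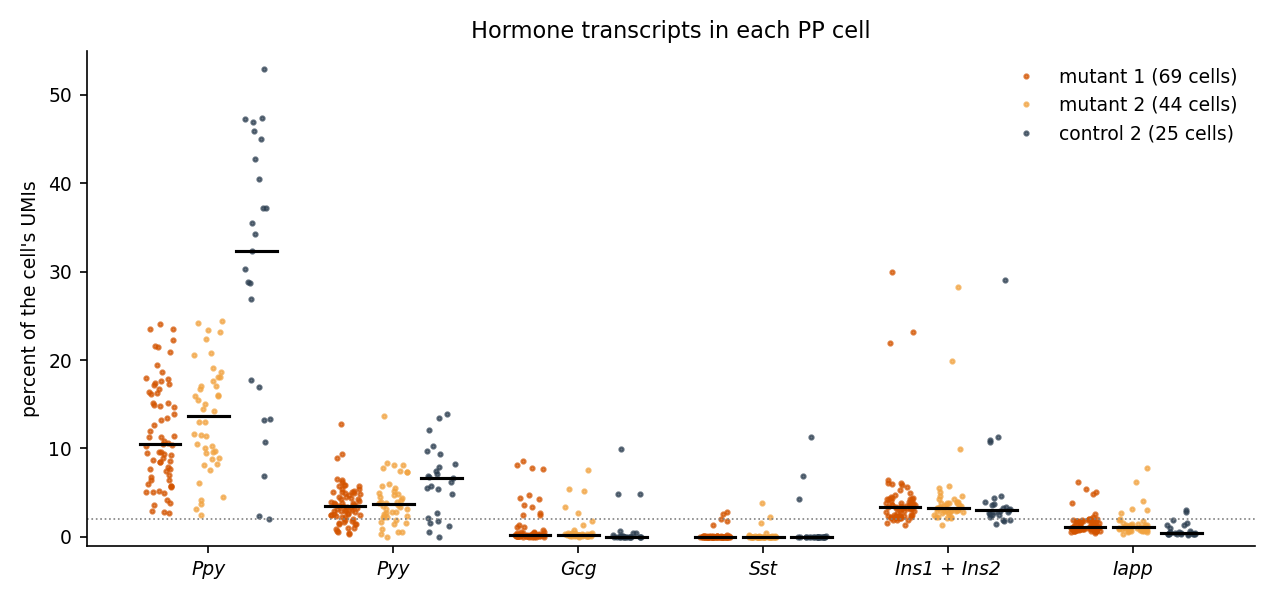
Percent of a cell's UMIs (vertical axis) that came from each hormone gene, for the 138 PP cells of the 3 libraries. Each point is 1 cell, black bars are medians and the dotted line is the 2% threshold of the rule; Ppy medians are 10.5%, 13.6% and 32.3%, and single cells with over 2% Gcg or Sst or over 10% insulin stand apart from the rest.

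Hormone mixing was limited to a minority of the PP cells. Gcg reached 2% of UMIs in 20 of the 138, Sst in 7, and insulin reached 10% in 9, and 33 cells met at least one of these limits. Conversely, Ppy reached 2% in 54 of 631 alpha cells and in 19 of 208 delta cells, of which 15 were among the 41 delta cells of control 2. The median alpha cell held 0.130%, 0.123% and 0.659% Ppy in mutant 1, mutant 2 and control 2, and the median beta cell 0.0472%, 0.0526% and 0.0102%. Whether mixed cells are single cells or doublets was not tested, so the numbers of genes called against alpha and delta cells were also taken over unmixed cells, those in which each other one of Ppy, Gcg and Sst stayed under 0.1 times the own hormone.

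Within PP cells the shares of Ppy and of other genes were set side by side. The Spearman correlation of Ppy with Pyy over cells was 0.25 in mutant 1 (69 cells), 0.53 in mutant 2 (44 cells) and 0.60 in control 2 (25 cells). With Iapp, the islet amyloid polypeptide of beta cells, it was -0.35, -0.47 and -0.74. With Tspan8 it was -0.02, 0.25 and 0.04. With Gcg it was -0.33, -0.26 and -0.23 and with Sst -0.18, 0.09 and -0.37, but the rule chose the cells by these shares, so nothing is read from them. These values describe shares of the same cell total, in which a rise of 1 gene lowers the others, and cells of 1 library are not replicates.

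To ask what sets PP cells apart from alpha cells, UMIs were summed per library and cell type and compared by edgeR's quasi-likelihood test with the library as a block and with Benjamini-Hochberg adjustment over all 4347 genes tested. Levels are counts scaled to 1000000 UMIs other than those of the 5 rule genes (CPM). Of these genes 131 (3.01%) were higher and 170 (3.91%) lower in PP than in alpha cells, 6.92% together, and the direction was the same in every library for 125 and 166 of them. Against delta cells, 284 (6.53%) were higher and 294 (6.76%) lower, 13.3% together. The counts called in each gene list below stand beside these shares. The sums held 192211, 161556 and 214584 UMIs of PP cells. The p-values measure how much the differences between cell types varied over 3 libraries of pooled islets, since the block takes up the differences between libraries. That spread was estimated from the PP, alpha and delta sums together. The libraries mix both mutant libraries with control 2, so they are not replicates of the same condition. In data simulated on the depths of these libraries, the alpha comparison recovered 57 of 87 genes changed 2-fold (65.5%) and 89 of 90 changed 4-fold (98.9%). It called 7 of 3817 unchanged genes. Changed genes that missed the expression filter are not counted. The simulation gave every gene the same spread and the cell types of a library the same profile. It therefore cannot show how often genes with a larger spread are called wrongly or missed. DESeq2's Wald test on the same sums called 47 higher and 53 lower, all 100 of them among the calls above. Fewer genes passed without mutant 2 (57 and 69 against alpha cells, 170 and 189 against delta cells) and, against alpha cells, without mutant 1 (75 and 90).

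**Figure D2:**
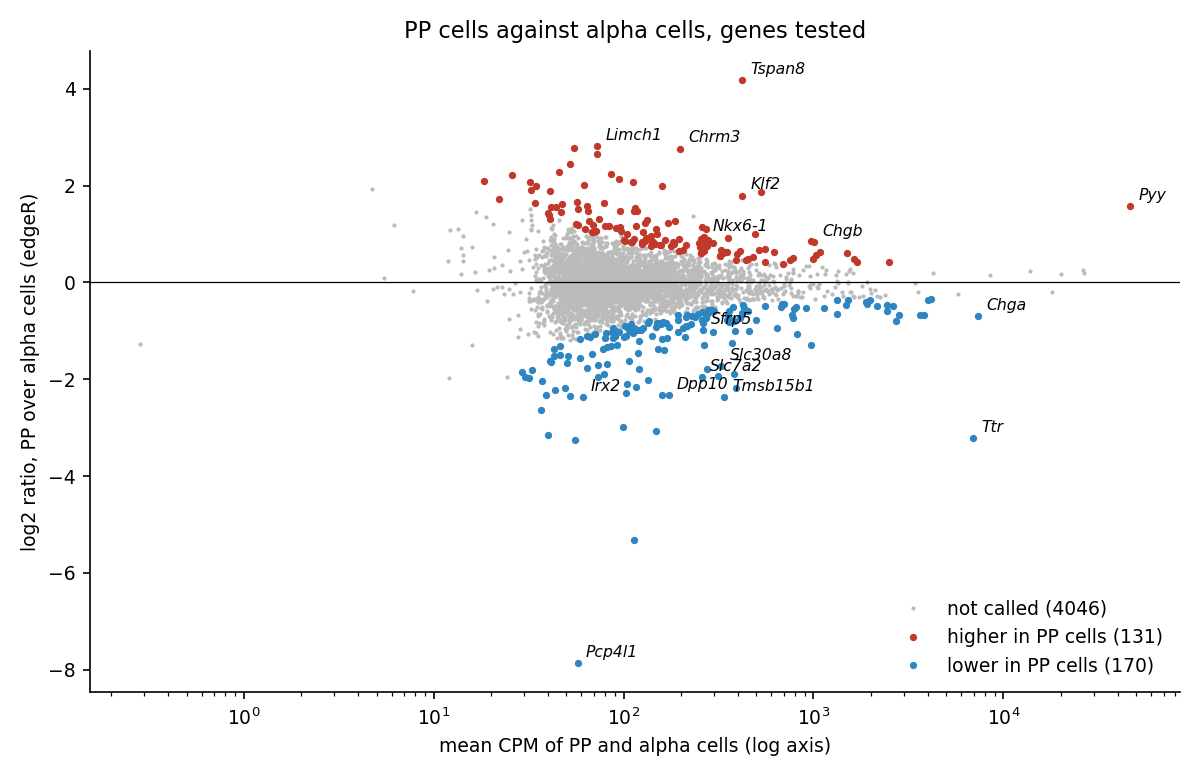
Log2 ratio of PP over alpha cells from edgeR (vertical axis) against the mean CPM of both cell types (horizontal log axis), 1 point for each of the 4347 genes tested. Tspan8 stands highest at 4.18; Pcp4l1 is lowest, where PP cells held 0 UMIs.

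Of the genes that mark PP cells, Pyy and Tspan8 were higher than in alpha cells, Sfrp5 was lower and Vsig1 was nearly absent. Pyy, which encodes the gut and islet hormone peptide YY, stood at 45283, 51292 and 106540 CPM in PP cells of mutant 1, mutant 2 and control 2 and at 13159, 15467 and 47626 CPM in alpha cells. PP cells were higher within each library, although the alpha cells of control 2 passed the PP cells of mutant 1. The log2 ratio was 1.58 ± 0.13 (SE; adjusted p = 4.73e-33, edgeR), and against delta cells it was 1.73 (adjusted p = 7.98e-40). Tspan8, a tetraspanin of the cell surface, stood at 848, 850 and 705 CPM in PP cells against 46.3, 57.9 and 20.1 CPM in alpha cells. No library overlapped, and the log2 ratio was 4.18 ± 0.20 (adjusted p = 6.57e-97, edgeR), the largest positive value among the genes called. Delta cells held an intermediate level of 320, 381 and 247 CPM, from which PP cells differed by 1.47 (adjusted p = 3.42e-16).

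A Tspan8 UMI was found in 73.9%, 75% and 96.0% of PP cells, and, when each cell was thinned to 1000 UMIs, in 46.9%, 57.1% and 44.0%. In alpha cells at the same thinned depth the share was 3.53%, 2.95% and 2.44%, and in beta cells, which serve as the background of free RNA, it was 1.14%, 1.40% and 0.267%. Thinning left out 5, 2 and 0 PP cells, 53, 17 and 0 alpha cells and 100, 39 and 0 beta cells. The median depths before thinning were 2358, 3294 and 7319 UMIs in PP cells against 3174, 5077 and 17216 in beta cells.

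Sfrp5, which encodes a secreted Wnt antagonist, stood at 159, 224 and 129 CPM in PP cells, against 314, 380 and 357 CPM in alpha cells. All 3 alpha values lay above all 3 PP values (log2 ratio -0.99 ± 0.20, adjusted p = 6.42e-05, edgeR). With cells thinned to 1000 UMIs the ratio of Sfrp5 was -0.74 and its call was lost (adjusted p = 0.24, edgeR). PP cells exceeded delta cells by 1.30 (adjusted p = 0.000349), and over unmixed cells by 0.64, which did not pass. Of Vsig1, an immunoglobulin-domain surface protein, PP cells held 6.38, 0 and 0 CPM and alpha cells 0 in every library. Apart from Ppy, which chose the cells, the label of PP cells thus rests on Pyy and Tspan8, while Sfrp5 was lower than in alpha cells and Vsig1 was counted 1 time. Of 15 further candidate genes for PP cells, 5 could be tested and 1 was higher than in alpha cells, beside 3.01% of all genes tested. It was Folr1, a folate receptor, with 70.2, 69.5 and 83.4 CPM against 1.93, 20.4 and 30.2 CPM (log2 ratio 2.28 ± 0.52, adjusted p = 0.000495, edgeR). Without mutant 1 the ratio of Folr1 was 1.62 (adjusted p = 0.168). Etv1, Meis2, Slitrk6 and Fxyd6 of the same list were not called (-0.08, 0.16, 1.45 and -0.11), and Aqp3, Entpd2, Abcc9 and Cartpt had no UMI in PP cells.

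**Figure D3:**
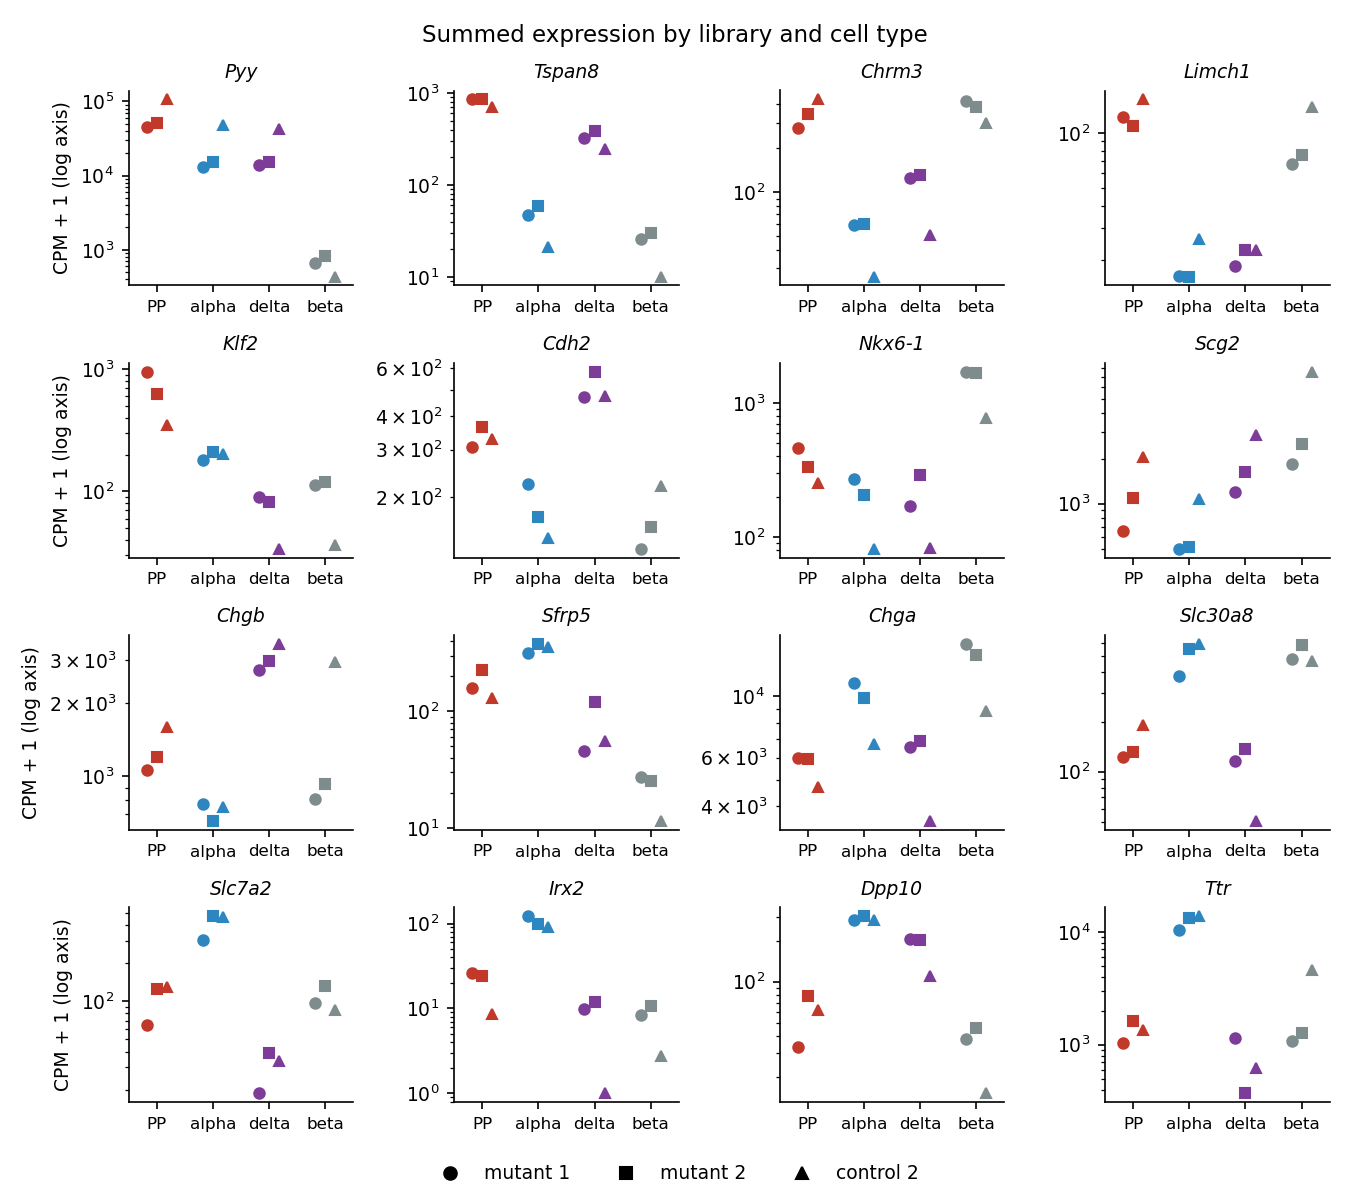
CPM + 1 on log axes for 16 genes (panels) in PP, alpha, delta and beta cells; circles are mutant 1, squares mutant 2 and triangles control 2, and CPM leaves out the 5 rule genes. Tspan8 is separated between PP and alpha cells in every library, while Irx2, Slc7a2, Dpp10 and Ttr sit high in alpha cells and low in PP cells.

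Chrm3, the muscarinic M3 acetylcholine receptor, led the receptor genes. Its levels were 274, 340 and 432 CPM in PP cells, 57.9, 59.6 and 25.2 CPM in alpha cells and a mean of 101 CPM in delta cells. The groups did not overlap, and the ratio was 2.76 ± 0.24 on the log2 scale against alpha (adjusted p = 3.31e-27, edgeR) and 1.95 against delta cells (adjusted p = 3.97e-12). Beta cells held 366 CPM on average, a level within the range of the PP cells. Of 13 receptor genes tested, Chrm3 and Folr1 were higher and Gria2, an AMPA glutamate receptor subunit, was lower in PP than in alpha cells (236, 270 and 311 CPM against 415, 458 and 438 CPM, adjusted p = 0.00328, edgeR), a call lost without mutant 1 (adjusted p = 0.0981) and without mutant 2 (0.143). Over all genes tested the shares were 3.01% higher and 3.91% lower. Of 44 receptor genes listed, 16 had no UMI in PP cells, among them Npy4r, the Y4 receptor for pancreatic polypeptide.

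Of the other genes with the largest positive ratios, Limch1, a regulator of actomyosin, stood at 121, 108 and 152 CPM in PP cells and 15.4, 15.3 and 25.2 CPM in alpha cells, a log2 ratio of 2.82 ± 0.41 (adjusted p = 1.37e-09, edgeR). Those of Mdga2 and Ntm, both GPI-anchored neuronal adhesion proteins, were 2.65 and 2.07, and those of Olfm3 and Kctd8, an olfactomedin and an auxiliary subunit of GABA-B receptors, were 2.23 and 2.13. Ccn1, a matricellular protein, reached 2.79, Hspb8, a small heat shock protein, 2.44, Nnat 2.08 and Nol4l 2.02. Each was called against alpha cells and each was higher in PP cells of every library. Of these genes Ntm, Kctd8 and Nnat were higher still in delta cells (log2 ratios of PP over delta -1.45, -1.38 and -2.58, adjusted p = 1.61e-10, 2.08e-08 and 3.90e-15, edgeR), and Mdga2 and Nol4l were not called against delta cells (0.90 and 0.72, adjusted p = 0.0769 and 0.26). Beta cells held 67.0, 75.1 and 138 CPM of Limch1. Nnat rested on 13, 4 and 6 UMIs in PP cells, and over unmixed cells its ratio to alpha cells was 1.004 (adjusted p = 0.672, edgeR). Its call was also lost without mutant 1 (0.0954).

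Of 22 islet transcription factor genes tested, 18 were not called between PP and alpha cells, beside 4046 of all 4347 genes tested. In PP cells 3 were lower (among them Irx2 and Rfx6) and 1 was higher (Nkx6-1). Of all genes tested, 3.91% were lower and 3.01% higher. The median log2 ratio of the 22 was -0.23, beside -0.01 over all genes tested. Irx2, an Iroquois homeodomain factor that marks alpha cells, stood at 25.5, 23.2 and 7.59 CPM against 121, 97.1 and 90.6 CPM, without overlap (log2 ratio -2.37 ± 0.44, adjusted p = 7.73e-06, edgeR). Rfx6, a transcription factor of islet endocrine cells, was at 108, 116 and 175 CPM against 336, 305 and 232 CPM (-1.12 ± 0.22, adjusted p = 1.48e-05, edgeR).

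Nkx6-1, a homeodomain factor best known from beta cells, was at 459, 332 and 250 CPM in PP cells and at 268, 204 and 80.6 CPM in alpha cells. It was higher in PP cells of each library, although the libraries overlapped (0.94 ± 0.19, adjusted p = 3.36e-05, edgeR), and beta cells held 1375 CPM on average. The summed shares of Ins1 and Ins2, which the rule read, were 4.60%, 4.85% and 5.13% of all UMIs in PP cells and 5.80%, 4.88% and 4.52% in alpha cells. On the CPM scale of Nkx6-1, Ins2 stood at 46935, 50434 and 69218 in PP cells and 63433, 52880 and 46740 in alpha cells. It was thus lower in PP cells of both mutant libraries and higher in those of control 2, and so was Ins1. Klf2, a zinc finger factor outside the islet list, was named for its difference from delta cells. It was at 950, 626 and 349 CPM in PP cells against 179, 210 and 201 CPM in alpha cells (1.79 ± 0.17, adjusted p = 2.19e-24, edgeR) and a mean of 67.8 CPM in delta cells (3.37, adjusted p = 2.25e-41).

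Of the alpha markers that could be tested, 6 of 10 were lower in PP cells, beside 3.91% of all genes tested. None was higher, and the median log2 ratio was -2.03. Ttr, the thyroid hormone and retinol carrier transthyretin, was at 1033, 1607 and 1358 CPM in PP cells and 10442, 13352 and 13759 CPM in alpha cells (-3.22 ± 0.40, adjusted p = 0.0151, edgeR). The groups lay far apart, yet without control 2 the adjusted p was 0.119 at a ratio of -3.15. Beta cells held 1082, 1269 and 4630 CPM of Ttr. Slc7a2, Dpp10, Wnk3, Mamld1 and Irx2 were the other 5, with ratios from -1.96 to -2.37. With cells thinned to 1000 UMIs the ratio of Dpp10 was -1.29 and its call was lost (adjusted p = 0.0591, edgeR). Tm4sf4, Gria3 and Smarca1 of the same list were not called (0.22, -0.51 and 0.29), and Irx1, Loxl4 and Nxf7 had no UMI in PP cells.

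Outside the marker list, Pcp4l1, which encodes a small PCP4-like protein, had no UMI in PP cells and 169 in alpha cells, so alpha cells were at least 18.05-fold higher by a floor of 3 UMIs over the summed PP cells. Sim1, a bHLH-PAS transcription factor, was counted 3 times in PP and 84 times in alpha cells, 8.97-fold by CPM (2.97 to 44.4). Higd1a, Csmd2, Slc35f1, Tmsb15b1, Ptk2b and Gem completed the genes with the largest negative ratios, from -3.26 for Higd1a, a mitochondrial hypoxia-induced protein, to -2.33 for Gem, a small GTPase that inhibits calcium channels. Tmsb15b1 was the most abundant of these 6, at 134, 85.0 and 98.6 CPM against 615, 564 and 524 CPM (-2.38 ± 0.21, adjusted p = 3.41e-27, edgeR), but it has a near-identical copy with which reads may be shared. Slc35f1 lost its call without mutant 1 (adjusted p = 0.108) and without mutant 2 (0.0627).

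**Figure D4:**
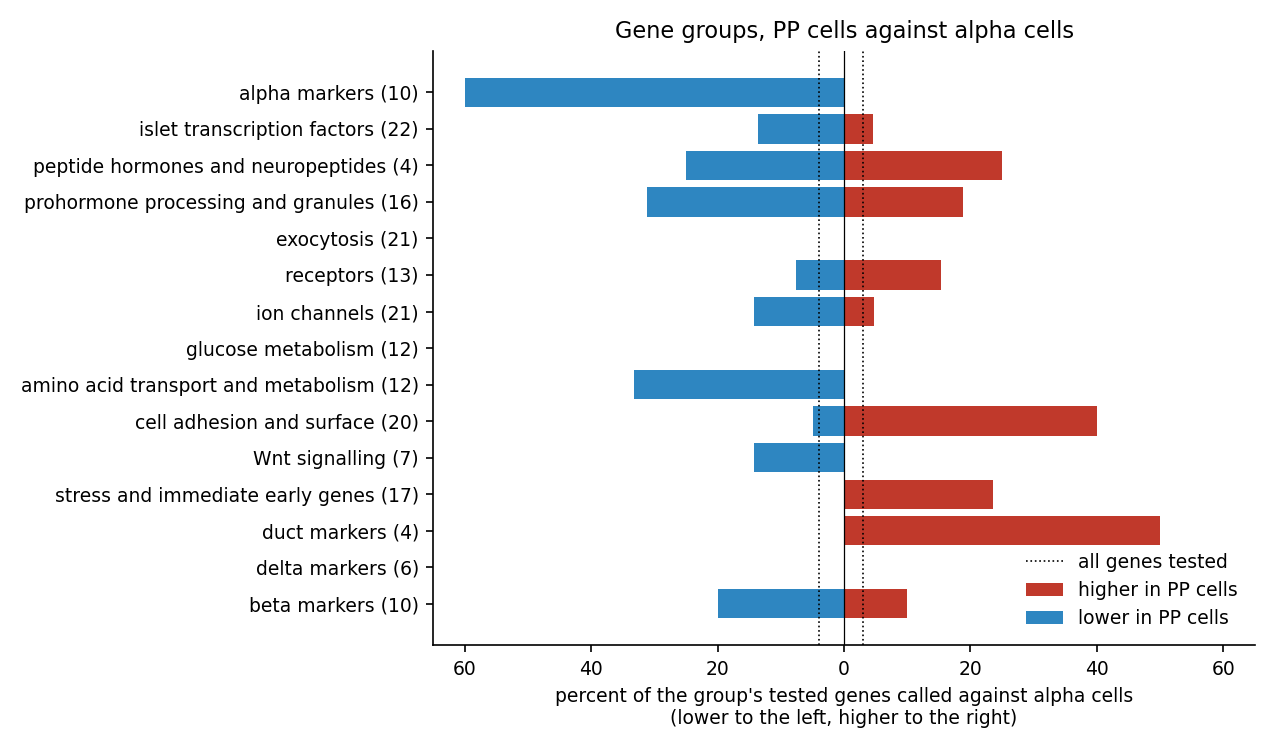
Percent of each group's tested genes (number in parentheses) called lower (left bars) or higher (right bars) in PP than in alpha cells by edgeR at an adjusted p under 0.05; dotted lines are the shares over all genes tested, 3.91% and 3.01%. Alpha markers and amino acid transport lean left and cell adhesion leans right. Exocytosis and glucose metabolism have no bar, which in lists this short lies near the shares over all genes tested.

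The genes of the secretory granule were split. Of 16 tested, Chgb, Scg2 and Scg3 were higher in PP than in alpha cells, and Chga, Cpe, Pcsk2, Ero1b and Slc30a8 were lower, with a median of -0.22. Of all genes tested, 3.01% were higher and 3.91% lower. The granins moved in opposite directions: chromogranin B (Chgb) was at 1059, 1205 and 1601 CPM against 768, 654 and 745 CPM (0.83 ± 0.12, adjusted p = 1.66e-09, edgeR), and chromogranin A (Chga) at 5971, 5942 and 4680 CPM against 11131, 9889 and 6721 CPM (-0.70 ± 0.11, adjusted p = 6.95e-08, edgeR). Neither pair of groups overlapped. Secretogranin II (Scg2) was higher within each library, 657, 1082 and 2033 CPM against 498, 514 and 1067 CPM (0.84 ± 0.12, adjusted p = 1.18e-09, edgeR), while delta cells held more than PP cells (PP over delta -0.50, adjusted p = 0.000711), a call lost without mutant 1 (ratio -0.41) and without mutant 2 (-0.48). Slc30a8, the granule zinc transporter ZnT8, was at 121, 131 and 190 CPM against 376, 552 and 589 CPM (-1.73 ± 0.20, adjusted p = 9.63e-16, edgeR). Its level in PP cells did not pass the test against delta cells (0.75, adjusted p = 0.0748), but did so without mutant 2, at a ratio of 1.22. Ero1b, an oxidoreductase of the endoplasmic reticulum, differed by -0.55 (adjusted p = 0.00098), and by -0.52 without mutant 1 and -0.57 without mutant 2 (adjusted p = 0.0954 and 0.0892, edgeR).

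None of the 21 exocytosis genes and none of the 12 genes of glucose metabolism was called in either direction against alpha cells, beside 6.92% of all genes tested. In lists this short the absence of calls lies near that share, so nothing is read from it. Their median ratios were -0.02 and 0.10. Of 12 genes of amino acid transport and metabolism, 4 were lower in PP cells, beside 3.91% of all genes tested. None was higher, and the median was -0.43. All 4 are transporters of the plasma membrane, and Slc7a2 is also counted among the alpha markers above. Slc7a2, which carries cationic amino acids such as arginine, was at 63.8, 124 and 129 CPM against 305, 468 and 463 CPM (-1.96 ± 0.22, adjusted p = 9.63e-16, edgeR), without overlap. Slc7a8, the neutral amino acid transporter LAT2, was at 44.7, 69.5 and 152 CPM against 147, 177 and 393 CPM (-1.39 ± 0.27, adjusted p = 1.33e-05, edgeR), lower within each library. Its heavy chain Slc3a2 and Slc38a4, a sodium-coupled transporter, differed by -0.83 and -1.14 (adjusted p = 0.0138 and 0.0119), but neither call held without mutant 1 (0.123 and 0.266) or without mutant 2 (0.0892 and 0.136), and that of Slc3a2 was lost without control 2 as well (0.0678).

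Ion channel genes differed in 4 of 21 tested, 1 higher and 3 lower, beside 3.01% and 3.91% of all genes tested. Kcnk16, the TALK-1 potassium channel, was higher in PP cells, at 785, 765 and 675 CPM against 609, 484 and 383 CPM (0.62 ± 0.14, adjusted p = 0.000304, edgeR). Cacna1c, the L-type calcium channel subunit Cav1.2, was lower at 147, 108 and 182 CPM against 253, 250 and 332 CPM (-0.91 ± 0.22, adjusted p = 0.00107, edgeR). Kcnma1, the BK potassium channel, was lower by -0.57 (adjusted p = 0.0381) and lost the call without mutant 1 (0.288) and without mutant 2 (0.325). Without mutant 2, Kcnk16 and Cacna1c also missed the threshold (adjusted p = 0.0714 and 0.104). Abcc8, the sulfonylurea receptor of the ATP-sensitive potassium channel, was not called (746, 742 and 986 CPM against 688, 691 and 801 CPM).

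Cell adhesion and surface genes formed the largest set on the higher side by number, 8 of 20 tested, with 1 lower and a median of 0.44. Of all genes tested, 3.01% were higher and 3.91% lower. By share, the short lists of PP (2 of 3), duct (2 of 4) and acinar markers (1 of 2) stood higher. Tspan8 is counted in both the PP and the adhesion list, and Epcam in both the duct and the adhesion list. The lists were chosen with earlier results of these data known, so their counts are a description. Besides Tspan8 the adhesion and surface genes called higher included Cdh1 and Cdh2 (E- and N-cadherin), Epcam, Cldn7 (claudin 7), Nrxn3 (neurexin 3) and Tspan13. Cdh2 was at 306, 363 and 326 CPM against 224, 169 and 141 CPM (0.89 ± 0.19, adjusted p = 8.96e-05, edgeR), and Nrxn3 at 147, 131 and 205 CPM against 88.7, 51.1 and 75.5 CPM (1.17 ± 0.28, adjusted p = 0.000879, edgeR). Both were without overlap, and both lost the call without mutant 2 (adjusted p = 0.0814 and 0.0533). Tspan13 was called with all libraries (0.66, adjusted p = 0.00373, edgeR) and lost the call without mutant 1 (0.0547) and without mutant 2 (0.101). Against delta cells the adhesion and surface set had 4 genes higher and 6 lower in PP cells, beside 6.53% and 6.76% of all genes tested. Its median there was 0.02, and its summed level was 4759, 5301 and 5196 CPM in PP cells and 5533, 6059 and 5771 CPM in delta cells. Nrxn3 was higher than in delta cells (3.00, adjusted p = 6.25e-11, edgeR), whereas Cdh2 was lower (-0.51, adjusted p = 0.0361, edgeR), a call lost without mutant 1 and without mutant 2. Cadm1, an immunoglobulin-type adhesion molecule, was the gene on the lower side, at 25.5, 30.9 and 45.5 CPM against 125, 150 and 95.7 CPM (-1.90 ± 0.37, adjusted p = 1.47e-05, edgeR).

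Epcam is also a duct marker, and Krt18 of the same marker list was higher in PP cells too (0.53, adjusted p = 0.00898), 2 of 4 duct markers tested. Neither call held without mutant 2 (adjusted p = 0.225 for Epcam and 0.0627 for Krt18), and that of Krt18 was lost without mutant 1 (0.291). The 8 duct markers summed to 1295, 1360 and 1555 CPM in PP cells, 694, 751 and 1279 CPM in alpha cells and 689, 637 and 938 CPM in beta cells. Krt18 was the most abundant of them in PP cells, Cftr and Muc1 had no UMI there, and Krt19 and Sox9 had 3 and 1 UMIs. Spp1, also tested, was at 287, 417 and 228 CPM in PP cells against 55.9, 83.4 and 327 CPM in alpha cells. It was higher in PP cells of both mutant libraries, lower in those of control 2, and not called (1.38, adjusted p = 0.312, edgeR). Krt8 was not called either (0.48, adjusted p = 0.198, edgeR). Acinar markers summed to 82.9, 155 and 296 CPM in PP cells and 106, 56.2 and 196 CPM in alpha cells, with Cela1, an elastase, called higher (1.91, adjusted p = 0.0123) on 2, 12 and 7 UMIs and Cpa1 at 0. Without mutant 1 the ratio of Cela1 was 3.09 (adjusted p = 0.0011), without mutant 2 it was 0.77 (0.748), and without control 2 it was 1.95 (0.0911). Endothelial markers summed to 70.2, 116 and 75.9 CPM in PP cells (Kdr at 0), and leukocyte markers to 140, 131 and 45.5 CPM. Only 1 gene of each list could be tested, Cdh5 and C1qa, and neither was called against alpha cells. None of the 9 stellate and fibroblast markers (31.9, 23.2 and 7.59 CPM, 7 of 9 at 0) could be tested. The endothelial and leukocyte sums were higher in alpha than in PP cells of every library, the endothelial sum most of all in control 2. The stellate and fibroblast sum was lower in alpha cells of mutant 1 and higher in those of mutant 2 and control 2. Leaving out cells with over 1% of UMIs from these 5 lists gave 134 genes higher and 173 lower.

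Stress and immediate early genes were higher in 4 of 17 tested, namely Jun, Jund, Hspa8 and Hspa1a, with ratios from 0.48 to 0.60 and none lower, and against delta cells in 12 of 17, beside 3.01% and 6.53% of all genes tested. Jun, a subunit of the AP-1 factor, was at 893, 1182 and 1608 CPM in PP cells and 619, 727 and 1163 CPM in alpha cells, higher within each library (0.57 ± 0.12, adjusted p = 7.61e-05, edgeR). Egr1, the most abundant gene of the list, was not called against alpha cells (0.19, adjusted p = 0.349). The call of Jun was lost without mutant 2 (0.0814), that of Jund without mutant 1 (0.108) and without mutant 2 (0.111), and that of Hspa8 without control 2 (0.0628). With cells thinned to 1000 UMIs each of these calls was lost (ratios 0.39, 0.43 and 0.23, adjusted p = 0.255, 0.0591 and 0.626, edgeR). Hspa8 also lost its call by DESeq2's Wald test (0.164). With every gene of at least 1 UMI tested, Jund (0.0615) and Hspa8 (0.106) missed the threshold. Hspa1a shares most of its sequence with Hspa1b, so its counts are uncertain. These genes respond to tissue dissociation, whose part in the result was not tested.

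Among peptide hormones other than those of the rule, 19 of 26 had no UMI in PP cells, among them Npy and Ghrl. Edn3, the precursor of endothelin 3, was lower in PP than in alpha cells (57.4, 77.3 and 83.4 CPM against 148, 141 and 121 CPM; -0.92 ± 0.30, adjusted p = 0.0361, edgeR), a call lost without mutant 1 (0.419) and without mutant 2 (0.179). In delta cells 3 UMIs of it were counted in all, and PP cells held 11.4-fold more per UMI (3.56 to 58.6). In Wnt signalling, Sfrp5 was the 1 gene of 7 that was called against alpha cells, beside 6.92% of all genes tested.

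PP cells were also set beside delta cells. All 6 delta markers tested were lower in PP cells, beside 6.76% of all genes tested, with a median of -2.89. None of the 6 was called between PP and alpha cells, where 6.92% of all genes tested were called. The genes with the smallest p on the lower side were Asic2, an acid-sensing ion channel (57.4, 209 and 106 CPM in PP cells, 1267 CPM on average in delta cells; -3.25, adjusted p = 2.73e-58, edgeR), Cd24a, a surface glycoprotein (-3.60), Sez6l (-2.76), Dpp6, an auxiliary subunit of Kv4 channels (-3.64), and Auts2 (-1.87). On the higher side, beside Klf2 and Pyy, stood Prkg1, the cyclic GMP-dependent protein kinase (3.80, adjusted p = 2.79e-27), and Cadps, a priming factor of dense-core vesicles (2.63, adjusted p = 9.40e-25). Of these 9 genes, 4 were also called between PP and alpha cells in the same direction: Asic2 (-1.02, adjusted p = 0.00027), Auts2 (-0.95, adjusted p = 3.51e-09), Klf2 (1.79) and Pyy (1.58). For Asic2 that call was lost without mutant 1 (-0.74, adjusted p = 0.106), by DESeq2's Wald test (0.360) and with cells thinned to 1000 UMIs (0.113), and without mutant 2 the ratio was -1.76. Cd24a, Sez6l, Dpp6, Prkg1 and Cadps were not called there (0.12, 0.67, -0.16, -0.14 and -0.25).

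The PP cells of the mutant libraries were set beside those of control 2 by size alone, since 1 control library allows no test. Among the 689 genes that averaged 200 CPM or more in PP cells, 42 (6.1%) were lower and 37 (5.37%) higher by over 1 on the log2 scale in both mutant libraries. In alpha cells it was 52 of 734 (7.08%) and 36 (4.9%), and in delta cells 53 of 840 (6.31%) and 48 (5.71%). St18, the mutated gene, was at 134, 147 and 152 CPM in PP cells of mutant 1, mutant 2 and control 2, and its exact Poisson intervals, 82.9 to 205 CPM, 88.4 to 229 CPM and 92.7 to 234 CPM, overlapped. It was not called between PP and alpha cells (-0.09 ± 0.24, adjusted p = 0.897, edgeR), and delta cells held more (PP over delta -0.69, adjusted p = 0.0443), a call lost when any 1 library was left out (ratios from -0.60 to -0.76). Pyy was lower in PP cells of both mutant libraries (log2 ratios -1.23 and -1.05), and it was lower in their alpha cells (-1.86 and -1.62) and delta cells (-1.63 and -1.48) too.

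Ribosomal protein genes were mostly lower in PP cells of the mutant libraries. Of 69 counted, 49 were lower in both mutant libraries, or 71.0%, beside 281 of all 689 genes (40.8%). Their median log2 ratios were -0.81 and -0.59, beside 0.01 and 0.06 over the 689, and the medians in alpha cells were -0.89 and -0.72. In alpha cells 60 of 72 were lower in both, beside 38.8% of all 734 genes, and in delta cells 52 of 67, beside 40% of all 840. Rps28, Rps18, Rpl23a and Rps14 had ratios from -1.91 to -3.64, and the mitochondrial mt-Co2 was at 255 and 348 CPM against 2602 CPM. Several ribosomal genes have many processed copies in the genome, so their counts are uncertain. Higher in both mutant libraries were Ube2s, a ubiquitin-conjugating enzyme (2.18 and 2.11), Mettl15, a mitochondrial methyltransferase (2.65 and 2.08), Acin1 (1.64 and 1.56), Dnajb1, an HSP40 cochaperone (1.76 and 1.56), and Wdr1, an actin-disassembly factor (1.97 and 1.54). Mafa, a MAF factor of beta cells, was counted 35, 35 and 2 times in PP cells, or 223, 270 and 15.2 CPM with intervals of 156 to 311, 188 to 376 and 1.84 to 54.8, and the same direction held in alpha cells (2.83 and 2.81) and delta cells (2.61 and 3.17). Beta cells held 2811, 2665 and 571 CPM of Mafa. The ratios of Ube2s, Acin1 and Dnajb1 were above 1 in alpha and delta cells as well, whereas those of Wdr1 were 0.54 and 0.38 in alpha cells and -0.05 and -0.23 in delta cells, and those of Mettl15 0.57 and 0.38 in alpha cells and 0.43 and 1.24 in delta cells. The genotype of each library was taken from its label alone, which no count here checks. Mafa was higher and ribosomal protein genes were mostly lower in the libraries labelled mutant in PP, alpha and delta cells alike. Whether the library labels are correct was not tested. Genotype, batch, depth and library cannot be told apart.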

How the data were processed

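Droplet single-cell RNA-Seq gave 1 matrix per library. DropEst was the authors' tool for counting, and what they deposited are raw UMI counts, without any scaling. The submitters' processing notes name GRCm39 and Seurat; the aligner and annotation are not given in the sources used here. The 3 matrices listed 32227 genes, 27 symbols of which occur on more than 1 row. No doublet caller was run. Cells were filtered and typed by the hormone shares given above (alpha and delta by the same rule with Gcg and Sst), counts were summed per library and cell type (9 sums), and edgeR 4.0.16 (TMM, filterByExpr, robust quasi-likelihood fit, library as block, 4 residual degrees of freedom) was run in R 4.3.3 without Ppy, Gcg, Sst, Ins1 and Ins2, which were also left out of library sizes. The numbering does not pair mutants with controls; the block joins cell types from the same pool of islets. Calls are at an adjusted p under 0.05. DESeq2 1.42.0 and other settings were alternatives. The cells, gene lists and named genes were chosen with earlier results of these data known. Named genes were the PP lists, the 12 largest ratios in each direction (at least 50 CPM, same direction in every library), up to 5 called and 2 uncalled members of each list, St18, Myt1 and Myt1l, and the 5 smallest p against delta cells in each direction. Some genes that met the rule are not reported here. Between genotypes, the 5 highest and 5 lowest genes were named; Mafa and the ribosomal protein genes were added there after their values were seen, and further called members are named only to complete a list's count. The fit was tested on simulated data in which every gene had the same spread. Intervals are exact at 95% and cover counting error only; a count of 0 is set at a floor of 3.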

Additional observations from a re-analysis of the deposited data

How the results depend on the processing

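Against alpha cells, the 131 genes higher and 170 lower became 32 and 50 with cells thinned to 1000 UMIs (1121 genes tested), 47 and 53 by DESeq2's Wald test, and 71 and 181 with every gene of at least 1 UMI tested. Over unmixed cells they were 112 and 115 (2520 genes tested), and 197 of the calls were shared with the main setting. Against delta cells, 284 and 294 became 72 and 84 with thinning, 135 and 155 by the Wald test, and 167 and 195 over unmixed cells. Without the library as a replicate block the calls were 13 and 26 against alpha cells and 58 and 115 against delta cells. No paired analysis was possible between genotypes because only 1 control library was read. Leaving out 1 library gave 57 to 128 higher and 69 to 160 lower against alpha cells, and 170 to 243 and 189 to 264 against delta cells, the fewest without mutant 2 each time. Of 60 named genes called against alpha cells, 19 were called in every setting in which they were tested, and none reversed. Not every gene was tested in every setting: Pcp4l1 was tested in 8 and Tspan8 in 15, the main setting included. Of 783 alternative values, 663 stayed called and 120 did not, 38 of them without the block. Against delta cells 26 of 63 were called in every setting in which they were tested, and none reversed. Over unmixed cells the share of PP cells was 1.60% in mutant 1 (1.18% to 2.12%) and 1.67% in mutant 2 (1.16% to 2.32%). In control 2 it was 0.832% (0.502% to 1.30%), an interval that overlapped both. In PP cells, genes lower and higher in both mutant libraries numbered 14 and 11 from 500 CPM and 75 and 58 with thinning, and 48 to 82 and 47 to 61 with 1 mutant library left out. A filter on non-endocrine markers, added after seeing the data, left each share of PP cells as it was. PP cells of control 2 numbered 25, so genes of low level there rest on few UMIs.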
